A study of Arabidopsis thaliana with 12 samples.

Results

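The response of seeds labelled erf4 to 6 h of imbibition was measured by RNA sequencing of 3 imbibed and 3 dry libraries, which were 6 of the 12 libraries of the series. The members were fixed by genotype and treatment labels alone, and every gene was eligible: 18897 of the 32833 genes in the count table had enough counts to be tested. After 6 h of imbibition transcripts had fallen for 16 of 18 tested LEA proteins, 10 of 13 oil body proteins and 20 of 35 ABA signalling genes, beside 27.2% of all genes tested. Transcripts had risen for 27 of 34 genes of ribosome assembly, 186 of 295 ribosomal protein genes, 7 of 9 expansins and 21 of 40 genes of DNA replication and the cell cycle, beside 28.4% of all genes.

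All groups came from Arabidopsis thaliana grown in soil in a chamber, and all seeds were used freshly harvested. The wild type was the accession Col-0, and the mutant was erf4, given as erf4-1 in the series' design text, in the Col-0 ecotype; the labels do not say what kind of allele it is. ERF4 encodes an ethylene response factor of the EAR-motif type, which acts as a transcriptional repressor. Dry seeds were sampled directly (0 h), and imbibed seeds were kept on wet filter paper for 6 h before sampling. Each of the 4 groups, Col-0 dry, Col-0 imbibed, erf4 dry and erf4 imbibed, had 3 libraries of total RNA from whole seeds. The labels do not state whether replicates are separate plants or seed lots; p-values therefore reflect only how far these samples spread, and that spread may be technical.

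A mature dry seed stores messenger RNA made during maturation, when abscisic acid (ABA) drives the genes for storage, oil body and late embryogenesis abundant (LEA) proteins that protect cells during drying. On imbibition the stored RNAs are degraded and replaced, ribosomes are made and translation restarts well before the radicle emerges. Freshly harvested Arabidopsis seeds are commonly dormant, with DOG1 and ABA signalling holding back germination and gibberellin promoting it.

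Totals were 42590777, 31787283 and 35304170 counts in the 3 dry erf4 libraries and 38245860, 38157372 and 38398080 in the imbibed ones, and the range over all 12 libraries was 31787283 to 42590777. Levels are given as CPM, the TMM-scaled count per 1e6 counts of the library, in the order of replicates 1, 2 and 3. A total of 3 counts corresponds to 0.0704 to 0.0944 CPM before that scaling. The first principal component of the 6 erf4 libraries held 69.4% of the variance and separated dry from imbibed seeds, and the second held 12.6%. The correlation of log2 CPM between replicates was 0.958 to 0.966 for the dry and 0.968 to 0.974 for the imbibed erf4 libraries. The 10 most abundant genes took 20.2% to 22.6% of the counts in dry and 15.3% to 19.3% in imbibed erf4 libraries.

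ERF4 itself (chr3:5121303-5122562, plus strand, TAIR10) was compared with the genotype labels. The level of ERF4 before imbibition, in libraries labelled erf4, was 3.88, 9.0 and 15.3 CPM, and after it 1.67, 7.03 and 14.9 CPM, against means of 14 CPM in dry and 17.9 CPM in imbibed Col-0. Replicate 3 was thus at the Col-0 level in both states and replicate 1 the lowest in both, and the counts do not show whether the transcript is intact. The level did not change detectably with imbibition (log2 fold change -0.25 ± 0.61 SE, adjusted p = 0.75, and 0.0446 to 0.855 over the alternatives, by edgeR's quasi-likelihood test). Because ERF4 in replicate 3 was at the Col-0 level, the libraries are called "labelled erf4". For the same reason the leading counts are also given without both libraries of replicate 3. The kind of allele is not given, so this level alone does not show that a label is wrong. In dry replicate 3 the ferredoxin gene FD3 was at 185.7 CPM, against 76.8 to 105.1 CPM in dry Col-0. HEI10, a meiotic crossover factor, was at 5.09 CPM there, against 7.59 to 10.3 CPM. AT2G21180 was at 26.6 CPM, within the dry Col-0 range of 21.7 to 26.7 CPM. These genes were picked after their values were seen, with replicate 3 in its group. The genotype of replicate 3 was not tested.

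The seed identity of the libraries was clear from the storage globulin CRA1 at 68706.9 to 79581.1 CPM in dry seeds. Of 21 leaf and root markers only 2, CA1 and CASP1, were at 0 counts in all 6 libraries. Among the summed marker levels that follow, only those of pollen and tapetum had no overlap between dry and imbibed erf4 libraries. The summed level of 29 pollen and tapetum markers was 92.6 to 155.3 CPM in dry and 52.3 to 54.3 CPM in imbibed erf4 seeds, and 6 of the 29 were at 0 (AT5G07230, A7, MS2, GRP16, GRP17 and GRP19). The summed level of 16 endosperm markers was 4088.9 to 17337.7 CPM in dry and 1176.2 to 7745.1 CPM in imbibed seeds, with RGE1, IKU2, WRKY10 and PHE1 at 0, and replicate 1 was the lowest in both states. The summed level of 21 leaf and root markers was 217.6 to 350.9 CPM in dry and 218.6 to 262.7 CPM in imbibed seeds. In RNA from whole seeds, fewer cells of a type and less RNA per cell cannot be told apart, and the part these tissues have in the results was not tested.

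A gene is said to have risen or fallen where edgeR's quasi-likelihood test gave a Benjamini-Hochberg adjusted p under 0.05. By this rule 10496 genes changed, which was 55.5% of those tested: 5358 rose (28.4%) and 5138 fell (27.2%). Counts of list members below stand beside these shares of all genes. The change was at least 2-fold for 3162 of the genes that rose (16.7% of genes tested) and 2827 of those that fell (15%), and at least 8-fold for 596 and 524. Of the 10496 genes, 10404 moved the same way in all 3 same-numbered pairs of libraries. The call itself favours such genes, so this count is a description and no separate support. The 3 dry and 3 imbibed libraries did not overlap for 11063 genes, 58.5% of those tested. Without both libraries of replicate 3, 4428 genes rose and 4465 fell. With library totals in place of TMM factors, 8616 genes rose and 2653 fell and the median log2 fold change over all genes moved from 0.04 to 0.54, so changes are relative to the bulk of the transcripts.

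**Figure D1:**
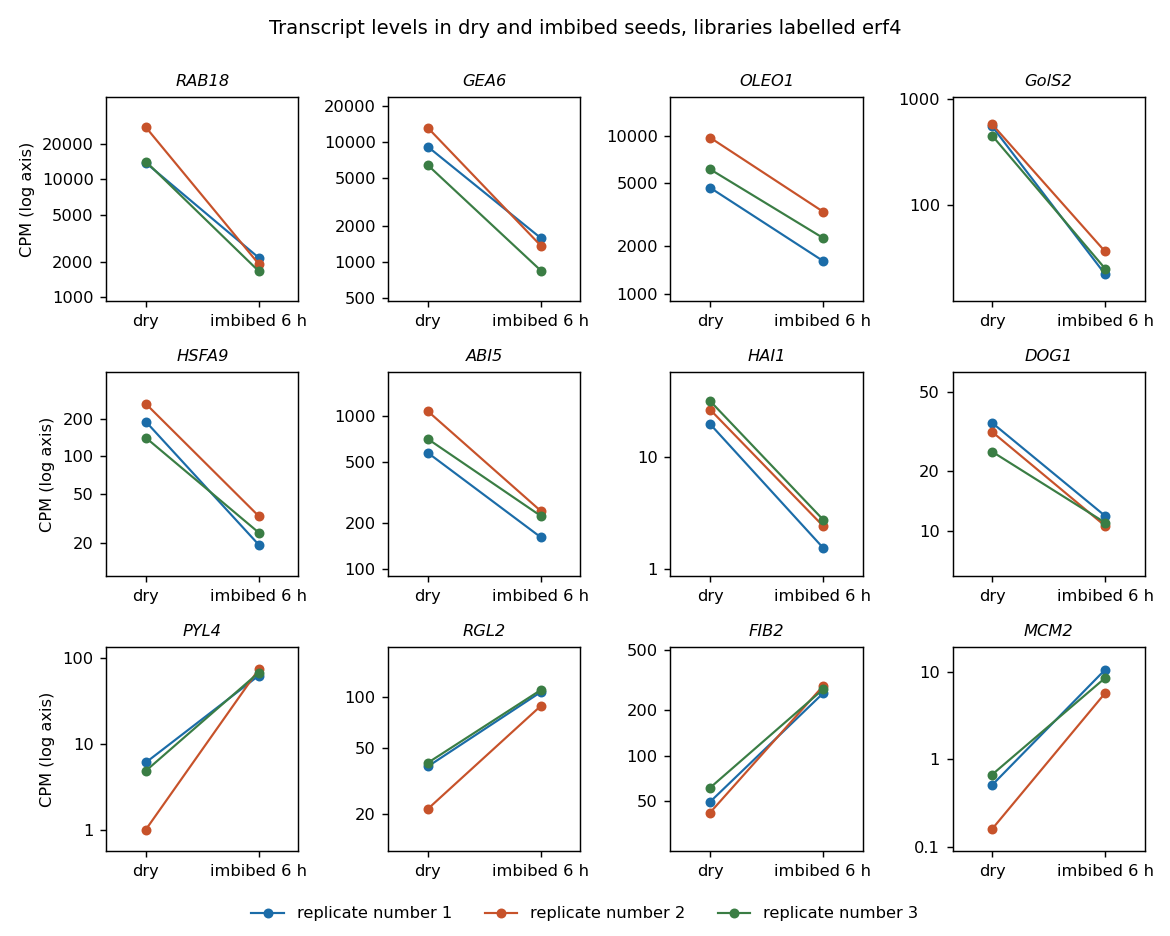
Level of 12 genes in each of the 6 libraries labelled erf4, dry on the left and imbibed for 6 h on the right of each panel, in TMM-scaled CPM on a log axis. Lines join libraries with the same replicate number. The first 8 genes fell and PYL4, RGL2, FIB2 and MCM2 rose. In each panel the dry and imbibed libraries do not overlap, as for 58.5% of all genes tested.

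The steepest rises were of genes with no or nearly no counts in the dry libraries. GA3OX1, a gibberellin 3-oxidase that makes bioactive gibberellin, was at 0 CPM in all 3 dry libraries and at 3.54, 1.57 and 4.51 CPM after imbibition. GA3OX2, the second such enzyme, was also at 0 in dry seeds and at 4.5, 2.08 and 3.34 CPM in imbibed ones. Against a floor of 3 counts over the 3 dry libraries, which like all such limits here covers counting error only, these were rises of at least 105.0-fold for GA3OX1 (adjusted p = 5.81e-05) and at least 107.5-fold for GA3OX2 (adjusted p = 4.17e-05). Among the 6 libraries labelled erf4, both transcripts were detected in the imbibed ones alone.

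AATP1, annotated as an AAA-ATPase, went from 0 in every dry library to 5.68, 3.48 and 13.2 CPM, at least 245.5-fold (adjusted p = 4.51e-05). PUM9, a Pumilio-type RNA-binding protein, went from 0 to 2.0, 2.7 and 11.2 CPM, at least 174.6-fold (adjusted p = 0.000367). It overlaps ANNAT1 on the other strand, and the strand setting of the counting is not given in the sources used here, so its value is uncertain. PYL6, an ABA receptor, went from 0 to 3.14, 3.66 and 5.73 CPM, at least 135.7-fold (adjusted p = 2.28e-06). AT3G56270, annotated as a WEB family protein, went from 0 to 2.58, 2.26 and 3.1 CPM, at least 85.8-fold (adjusted p = 3.54e-05). The transcription factor gene bZIP44 had 1 count in the dry libraries and 19.2, 22.6 and 14.7 CPM after imbibition, a ratio of 1810.4 with an exact 95% counting interval of 324.7 to 71533.8 (adjusted p = 4.2e-08). EXO, the EXORDIUM gene of cell expansion, was at 0, 0 and 0.183 CPM in dry seeds and at 42.6, 80.2 and 98.4 CPM after imbibition, the highest level among these genes (log2 fold change 10.14 ± 0.62 SE, adjusted p = 3.2e-07).

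The steepest falls were of transcripts at a few CPM in dry seeds. AT3G14040, annotated as a pectin lyase-like protein, fell from 5.56, 1.37 and 3.35 CPM to 0 in all imbibed libraries, at least 178.1-fold (adjusted p = 1.01e-05), and shares long near-identical stretches with AT3G07850, so reads may be split between the 2 copies. AT4G28140, annotated as an Integrase-type DNA-binding protein, fell from 3.57, 0.807 and 5.64 CPM to 0, at least 169.7-fold (adjusted p = 0.00036). AT4G18596, of the pollen Ole e 1 allergen and extensin family and overlapping WAVE5 on the other strand, fell at least 92.5-fold (adjusted p = 1.17e-05). DES-1-LIKE, which overlaps AT4G04940 on the other strand, fell at least 62.5-fold (adjusted p = 0.000143), and the pectin methylesterase inhibitor gene PMEI1 fell at least 61.0-fold (adjusted p = 1.54e-05). Replicate 2 had the lowest dry level of AT3G14040, AT4G28140 and AT4G18596.

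CBL7, a calcineurin B-like calcium sensor, fell from 1.53, 1.61 and 1.4 CPM to 1 count over the imbibed libraries, a ratio of 215.5 with a counting interval of 38.1 to 8568.7 (adjusted p = 0.000432). AT3G23350, annotated as an ENTH/VHS family protein and overlapping AT3G23360 on the other strand, was 149.1 times lower with a counting interval of 26.2 to 5945.4 (adjusted p = 3.86e-05). AGP40, an arabinogalactan protein on the pollen marker list, fell from 4.46, 1.78 and 1.89 to 0, 0.0443 and 0.0402 CPM. Of the 20 pollen and tapetum markers tested, 14 fell and none rose, with a median log2 fold change of -2.56 beside 0.04 over all genes. VGD1, a pectin methylesterase gene of pollen, fell from 11.2, 4.4 and 12.4 to 0.208, 0.377 and 0.262 CPM. The same markers summed to 364.1 to 570.3 CPM in dry Col-0 and 48.2 to 56.9 CPM in imbibed Col-0, so that the dry libraries of the 2 genotypes did not overlap while imbibed levels were close.

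LEA proteins bind water and stabilise membranes and proteins in dry cells, and their transcripts fell more than those of any other gene list examined here by the share of members called. Of 18 tested members 16 fell and none rose, and the median log2 fold change was -1.85. The exceptions were SAG21 (adjusted p = 0.325) and COR47, a dehydrin, which was at 1.61, 0 and 5.7 CPM in dry and 7.81, 2.22 and 9.52 CPM in imbibed libraries (adjusted p = 0.232, and 0.0154 with the replicate pairs as a block, over a range of 0.0154 to 0.559 among the alternatives). Without replicate 3, 15 of 18 fell. The LEA transcripts took 4.81%, 6.61% and 4.47% of all counts in the dry libraries and 1.86%, 1.82% and 1.55% in the imbibed ones.

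RAB18 (AT5G66400), an ABA-induced dehydrin, was at 13830.3, 27690.4 and 14184.8 CPM in dry and 2168.8, 1918.4 and 1668.5 CPM in imbibed libraries. The groups were far apart and dry replicate 2 was the highest (log2 fold change -3.27 ± 0.35 SE, adjusted p = 5.76e-06), and the gene overlaps PLP3b on the other strand. GEA6, which encodes the group 1 LEA protein EM6, fell from 9094.1, 13068.1 and 6393.4 to 1585.3, 1370.0 and 852.2 CPM (log2 fold change -2.91 ± 0.33 SE, adjusted p = 1.05e-05). LEA7 fell from 2402.6, 3136.9 and 2363.2 to 555.4, 441.0 and 546.0 CPM (log2 fold change -2.36 ± 0.19 SE, adjusted p = 7.6e-07). ATECP31, a seed LEA protein, fell from 4750.7, 5637.3 and 3498.9 to 872.3, 991.7 and 756.1 CPM (log2 fold change -2.41 ± 0.22 SE, adjusted p = 1.82e-06). AT3G15670, a LEA family gene that is not on the list, lost as much, from 8245.8, 12533.1 and 6630.1 to 1315.0, 1387.6 and 1357.0 CPM (log2 fold change -2.76 ± 0.28 SE, adjusted p = 3.5e-06).

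The ABA response element (ABRE), through which bZIP factors such as ABI5 act, was searched as ACGTGTC or ACGTGGC on both strands from 250 bases before to 50 after each gene start. It was found in 66.7% of the 18 LEA promoters and in 7.0% of all 32546 promoters. The G-box CACGTG, which can overlap an ABRE, was found in 50.0% of LEA and 7.1% of all promoters. The 250 bases before the start of RAB18 (chr5:26519448-26519697, minus strand, TAIR10) and of GEA6 (chr2:16780369-16780618, minus strand) are shown 5′ to 3′ because these genes lost the most RNA on the list, with motif matches in capitals: 1 ABRE in RAB18, and in GEA6 a stretch where 2 ABRE matches on opposite strands overlap a G-box.
RAB18: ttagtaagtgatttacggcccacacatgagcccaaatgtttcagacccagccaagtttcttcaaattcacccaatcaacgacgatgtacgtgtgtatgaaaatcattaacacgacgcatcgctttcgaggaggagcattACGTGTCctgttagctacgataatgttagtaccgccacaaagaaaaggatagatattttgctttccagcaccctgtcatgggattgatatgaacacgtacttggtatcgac
GEA6: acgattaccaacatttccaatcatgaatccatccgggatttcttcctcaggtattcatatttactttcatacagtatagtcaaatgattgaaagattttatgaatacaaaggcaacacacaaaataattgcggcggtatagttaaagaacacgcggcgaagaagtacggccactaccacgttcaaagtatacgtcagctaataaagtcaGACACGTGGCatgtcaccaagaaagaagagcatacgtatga
A match is a description of these letters and not evidence of binding.

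Oil body proteins coat the lipid droplets of the embryo. Of 13 tested members of their list 10 fell and 1 rose, with a median log2 fold change of -1.52. The oleosin gene OLEO1 fell from 4685.7, 9709.8 and 6129.1 to 1614.5, 3306.6 and 2255.7 CPM (log2 fold change -1.52 ± 0.31 SE, adjusted p = 0.0011), with replicate 1 lowest and replicate 2 highest in both states. OLEO4 fell from 1885.7, 4382.7 and 2581.5 to 447.4, 1037.4 and 662.9 CPM (log2 fold change -2.04 ± 0.36 SE, adjusted p = 0.000405) with the same order of libraries. HSD1, a steroleosin with a near-identical copy in the genome, had the largest fold change of the list, from 97.4, 220.8 and 251.3 to 7.48, 21.2 and 14.2 CPM. AT1G67360, a lipid droplet-associated protein gene, rose from 8.52, 4.68 and 11.8 to 20.0, 17.4 and 18.1 CPM (log2 fold change 1.15 ± 0.32 SE, adjusted p = 0.00886). OLEO1 overlaps AT4G25150 on the other strand.

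Among storage proteins, the nitrogen reserve of the embryo, 6 of 9 fell and none rose (median log2 fold change -1.08). The vicilin-like PAP85 fell from 21379.3, 26413.2 and 18893.6 to 6246.4, 10528.9 and 7128.2 CPM (log2 fold change -1.48 ± 0.30 SE, adjusted p = 0.000874). SESA5, a 2S albumin, fell from 8000.4, 6777.1 and 5931.9 to 1596.9, 1328.6 and 1554.9 CPM (log2 fold change -2.21 ± 0.21 SE, adjusted p = 1.99e-06). The 2 most abundant globulins moved less. CRA1 was at 73596.0, 79581.1 and 68706.9 CPM in dry and 41787.1, 59339.2 and 42500.3 CPM in imbibed libraries, which missed the threshold without the pairing (adjusted p = 0.0533) and passed it with the pairs as a block (adjusted p = 0.0256); the alternatives ranged from 0.000656 to 0.602. CRU3 fell from 33172.9, 46428.0 and 40524.8 to 16515.9, 30255.2 and 21434.6 CPM with an adjusted p of 0.029, with alternatives from 6.97e-05 (a replicate block in each genotype) to 0.262 (library totals). The storage list took 13.3%, 13.1% and 13.5% of counts in dry and 8.67%, 12.5% and 10.1% in imbibed libraries.

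In the list of maturation regulators and seed-specific water channels 9 of 16 members fell (56.2%, beside 27.2% of all genes). Another 4 rose (25%, near the 28.4% of all genes). HSFA9, the seed heat shock factor of late maturation, fell from 191.1, 266.5 and 141.7 to 19.3, 32.9 and 24.2 CPM (log2 fold change -2.97 ± 0.35 SE, adjusted p = 2.2e-05); it overlaps the small RNA gene U3D. BETA-TIP, a tonoplast aquaporin of protein storage vacuoles, fell from 131.9, 1171.2 and 691.7 to 30.5, 148.1 and 95.1 CPM (log2 fold change -2.87 ± 0.71 SE, adjusted p = 0.00498), with replicate 1 far below the others in both states. PER1, a seed peroxiredoxin, fell from 3791.9, 3972.1 and 3120.4 to 914.2, 1246.2 and 972.8 CPM (log2 fold change -1.80 ± 0.20 SE, adjusted p = 7.22e-06).

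Of 23 dormancy genes 11 fell (47.8%, beside 27.2% of all genes) and 7 rose (30.4%, near the 28.4% of all genes). Their median log2 fold change of -0.34 turned to 0.17 with library totals. DOG1, which sets the depth of seed dormancy, fell from 35.1, 31.6 and 25.1 to 11.9, 10.6 and 11 CPM, with tight imbibed values that all lay below the dry ones (log2 fold change -1.45 ± 0.21 SE, adjusted p = 5.63e-05). AT4G18660, annotated as a delay of germination protein, fell from 64.0, 60.8 and 42.5 to 12.2, 9.87 and 8.63 CPM (log2 fold change -2.44 ± 0.22 SE, adjusted p = 1.36e-06). SOM, a CCCH zinc finger gene that restrains light-dependent germination, fell from 984.7, 1407.2 and 1282.7 to 364.2, 697.7 and 540.3 CPM (log2 fold change -1.20 ± 0.22 SE, adjusted p = 0.000485). The members that rose were mostly chromatin regulators: the histone methyltransferase genes SUVH5 (log2 fold change 3.02 ± 0.57 SE, adjusted p = 0.000585) and SUVH4 (2.07 ± 0.40 SE, adjusted p = 0.000724) came from under 1 CPM. The dormancy gene MFT, listed as E12A11, did not pass (42.2, 52.1 and 39.0 against 28.3, 44.9 and 32.2 CPM, adjusted p = 0.159).

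Of 16 genes for ABA synthesis and breakdown, 8 fell and 1 rose (8 and 2 with the pairs as a block), and the median log2 fold change of -0.50 became 0.00 with library totals. Those that fell included genes for 9-cis-epoxycarotenoid dioxygenases, which cleave carotenoids in ABA synthesis. NCED6, a dioxygenase gene of the endosperm, fell from 4.29, 3.79 and 4.85 to 0.521, 1.53 and 1.07 CPM (log2 fold change -2.05 ± 0.36 SE, adjusted p = 0.000354). NCED3 fell from 3.11, 1.29 and 2.1 to 0.125, 0.177 and 0.322 CPM (log2 fold change -3.36 ± 0.59 SE, adjusted p = 0.000335). NCED9 moved less, from 7.93, 7.19 and 7.87 to 2.67, 5.59 and 3.9 CPM (log2 fold change -0.92 ± 0.24 SE, adjusted p = 0.00559). CYP707A2, the main ABA 8′-hydroxylase of imbibed seeds, was at 49.5, 41.3 and 51.8 CPM in dry and 33.7, 31.7 and 42.5 CPM in imbibed libraries (log2 fold change -0.40 ± 0.16 SE, adjusted p = 0.0462). That call was marginal: with library totals the value became 0.10 (adjusted p = 0.666), without both libraries of replicate 1 the adjusted p was 0.179, and the lowest over the alternatives was 0.00702. The member that rose was ABA4, an enzyme of neoxanthin synthesis, from 4.31, 2.22 and 2.5 to 14.7, 14 and 11 CPM (log2 fold change 2.12 ± 0.27 SE, adjusted p = 2.41e-05).

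ABA signalling runs from PYR/PYL receptors through clade A PP2C phosphatases, which the receptors inhibit, and SnRK2 kinases to bZIP factors. Of 35 tested members 20 fell (57.1%, beside 27.2% of all genes) and 9 rose (25.7%, near the 28.4% of all genes). The median log2 fold change was -0.62. Receptors made up 6 of the 9 rises. PYL4 rose from 6.1, 1.01 and 4.88 to 62.8, 74.4 and 68.1 CPM (log2 fold change 4.07 ± 0.50 SE, adjusted p = 4.42e-05), and PYL11 from 8.01, 17 and 5.09 to 60.2, 88.5 and 49.8 CPM (log2 fold change 2.73 ± 0.42 SE, adjusted p = 0.000198). In contrast PYL7 fell from 5.92, 13.2 and 9.88 to 1.79, 1.86 and 1.95 CPM (log2 fold change -2.36 ± 0.32 SE, adjusted p = 4.45e-05).

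Among the phosphatases, HAI1 fell from 19.7, 26.5 and 31.6 to 1.56, 2.44 and 2.78 CPM (log2 fold change -3.52 ± 0.32 SE, adjusted p = 1.76e-06), and ABI2 from 88.3, 91.8 and 104.2 to 15.1, 15.0 and 18.6 CPM (log2 fold change -2.55 ± 0.14 SE, adjusted p = 7.93e-08). HAI3 went the other way, from 66.6, 46.3 and 64.9 to 105.1, 130.6 and 118.6 CPM (log2 fold change 0.99 ± 0.18 SE, adjusted p = 0.000353). The kinase gene OST1 rose from 8.7, 7.87 and 5.92 to 24.1, 23.0 and 26.8 CPM (log2 fold change 1.72 ± 0.16 SE, adjusted p = 2.28e-06). The bZIP factor ABI5 fell from 571.5, 1068.9 and 704.0 to 160.3, 238.0 and 221.0 CPM (log2 fold change -1.92 ± 0.24 SE, adjusted p = 2.4e-05). ABI4, an AP2-type factor, rose from 7.7, 11.4 and 17.3 to 24.7, 38.9 and 48.2 CPM (log2 fold change 1.62 ± 0.29 SE, adjusted p = 0.000485). Receptors, phosphatases and kinases thus held members that rose and members that fell, whereas the 5 tested bZIP factors, ABI5, ABF1, ABF2, ABF4 and EEL, all fell.

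Gibberellin genes rose more often than they fell: 15 of 29 tested members were higher and 7 lower, with a median log2 fold change of 0.93. Of 10 tested genes for gibberellin synthesis 5 rose and 1 fell (6 and 0 with library totals). GA20OX3, which makes the precursor for GA3OX enzymes, rose from 15.9, 12.5 and 20.3 to 93.2, 136.9 and 78.3 CPM (log2 fold change 2.66 ± 0.25 SE, adjusted p = 2.23e-06). GA2OX6, a gibberellin-inactivating oxidase, fell from 9.39, 3.96 and 7.35 to 1.37, 1.55 and 1.11 CPM (log2 fold change -2.36 ± 0.32 SE, adjusted p = 4.14e-05). Of the 5 DELLA repressor genes 4 rose and RGL3 fell, a fall that did not pass with library totals. RGA1 went from 14.7, 14.3 and 24.7 to 90.6, 90.2 and 110.8 CPM (log2 fold change 2.44 ± 0.21 SE, adjusted p = 1.27e-06), and RGL2 from 38.6, 21.5 and 40.6 to 107.7, 89.0 and 110.8 CPM (log2 fold change 1.61 ± 0.20 SE, adjusted p = 1.62e-05). The receptor gene GID1C fell from 32.8, 36.7 and 27.7 to 14.2, 15.8 and 12.3 CPM (log2 fold change -1.20 ± 0.14 SE, adjusted p = 1.4e-05). GASA1, a gibberellin-regulated peptide gene, rose from 0.255, 0.646 and 1.62 to 11.6, 13.7 and 7.18 CPM (log2 fold change 3.69 ± 0.52 SE, adjusted p = 6.82e-05).

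Ethylene, jasmonate and auxin genes moved in both directions. Of 28 ethylene genes 12 fell and 6 rose, with a median of -0.36 that turned to 0.14 with library totals. ERF8, another EAR-type repressor of the ERF family, fell from 8.03, 4.12 and 11.4 to 0.666, 1.13 and 1.55 CPM (log2 fold change -2.82 ± 0.42 SE, adjusted p = 8.24e-05), while ACS4, an ACC synthase gene, rose from 0.434, 0.646 and 0.366 to 3.98, 2.31 and 2.29 CPM (log2 fold change 2.58 ± 0.42 SE, adjusted p = 0.000194). Of 27 jasmonate genes 8 fell (29.6%, near the 27.2% of all genes) and 2 rose (7.41%, beside 28.4%). With the pairs as a block 13 fell and 4 rose. The list was led by AOC1, an allene oxide cyclase (log2 fold change -2.15 ± 0.49 SE, adjusted p = 0.00208). Of 26 auxin genes 8 rose (30.8%) and 6 fell (23.1%), near the 28.4% and 27.2% of all genes. The auxin influx carrier AUX1 was up (2.87 ± 0.44 SE, adjusted p = 0.000117) and the repressor gene IAA2 down (-2.24 ± 0.20 SE, adjusted p = 1.27e-06).

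Cell wall genes had the largest median of the 35 lists, a log2 fold change of 2.67, with 17 of 28 tested members higher and 3 lower. Expansins loosen the wall during growth, and of 13 listed 9 were tested, of which 7 rose and none fell. EXPA10 rose from 1.76, 0.969 and 2.99 to 46.9, 26.1 and 57.7 CPM (log2 fold change 4.49 ± 0.52 SE, adjusted p = 2.75e-05), and EXPA8 from 0.918, 0.888 and 1.77 to 18.8, 17.1 and 29.5 CPM (log2 fold change 4.18 ± 0.35 SE, adjusted p = 9.45e-07). XTH16, a xyloglucan endotransglucosylase, rose from 0, 0 and 0.183 to 36.4, 36.8 and 58.6 CPM (log2 fold change 9.39 ± 0.53 SE, adjusted p = 1.27e-07). XTH31 was at 0 in dry seeds and at 2.37, 0.355 and 1.41 CPM after imbibition, at least 45.2-fold higher (adjusted p = 0.00196). The mannanase genes divided: MAN7, which overlaps AT5G66470 on the same strand, rose from 16.7, 7.35 and 11.9 to 28.8, 17 and 32.6 CPM (log2 fold change 1.12 ± 0.27 SE, adjusted p = 0.00323), while MAN5 fell from 7.35, 9.97 and 9.51 to 4.58, 4.9 and 4.75 CPM (log2 fold change -0.91 ± 0.17 SE, adjusted p = 0.000596). Among mucilage genes 9 of 15 rose and 1 fell, including CESA5, a cellulose synthase subunit of seed coat mucilage (log2 fold change 1.76 ± 0.24 SE, adjusted p = 4.93e-05).

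**Figure D2:**
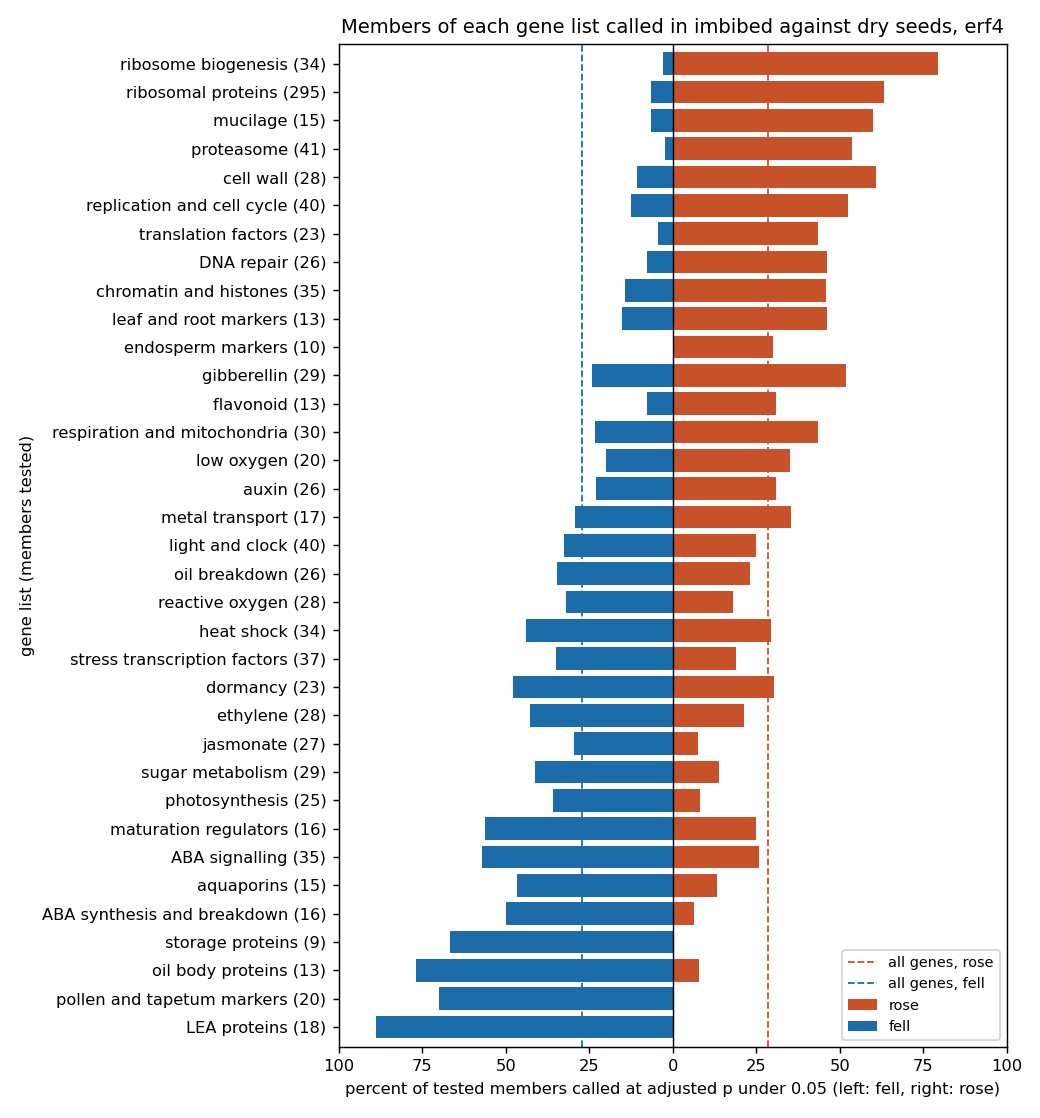
Share of the tested members of each of 35 gene lists that rose (right, orange) or fell (left, blue) in imbibed against dry seeds labelled erf4, at an adjusted p under 0.05; the number tested stands beside each name. Dashed lines mark the shares over all 18897 genes, 28.4% risen and 27.2% fallen; ribosome biogenesis stands at the top with 79.4% risen and LEA proteins at the bottom with 88.9% fallen.

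Ribosome assembly was the list with the highest share of rises, 27 of 34 members against 1 that fell (median log2 fold change 0.73). Without replicate 3 the counts were again 27 and 1. FIB2, a fibrillarin of the nucleolar methylation complex, rose from 49.6, 42.1 and 61.4 to 257.2, 287.3 and 273.2 CPM (log2 fold change 2.42 ± 0.17 SE, adjusted p = 3.51e-07) and contains the small nucleolar RNA gene U60.2F on the same strand. AT5G27120, a NOP56-like pre-rRNA processing protein, rose from 108.4, 90.6 and 96.9 to 324.1, 390.0 and 389.0 CPM (log2 fold change 1.90 ± 0.13 SE, adjusted p = 2.4e-07). AT1G52930, a Brix domain protein of ribosomal RNA processing, rose from 45.2, 26.7 and 31.9 to 123.9, 106.6 and 108.5 CPM (log2 fold change 1.71 ± 0.17 SE, adjusted p = 4e-06). NUC-L1, the main nucleolin, rose from 888.8, 704.6 and 797.8 to 1888.9, 1514.6 and 1373.4 CPM (log2 fold change 1.00 ± 0.16 SE, adjusted p = 0.000143), and overlaps GH9C1 on the other strand. The member that fell was AT4G31420, annotated as zinc finger protein 622, from 91.6, 101.6 and 91.0 to 33.4, 33.1 and 33.0 CPM (log2 fold change -1.51 ± 0.10 SE, adjusted p = 2.59e-07).

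Genes for ribosomal proteins followed. Of 295 tested genes 186 rose and 19 fell, with a median log2 fold change of 0.72. They took 2.84%, 1.9% and 2.22% of counts in the dry libraries and 6.35%, 4.59% and 4.95% in the imbibed ones, a measure on library totals. In TMM-scaled CPM the rise was smaller, from 30892.4, 24353.7 and 23874.1 to 50575.6, 38866.9 and 38267.7. The groups did not overlap on either scale. Of 23 translation factors 10 rose and 1 fell, among them the poly(A)-binding protein gene PAB8, from 91.1, 89.7 and 102.9 to 204.0, 195.9 and 206.8 CPM (log2 fold change 1.10 ± 0.11 SE, adjusted p = 4.77e-06). Of 41 proteasome subunit genes 22 rose and 1 fell (25 and 2 with the pairs as a block); PBC2, a 20S core subunit, rose from 23.7, 26.5 and 21.3 to 59.5, 51.8 and 53.9 CPM (log2 fold change 1.21 ± 0.12 SE, adjusted p = 2.83e-06). Their median of 0.36 was smaller than that of the ribosomal genes. Each of the 4 PBC2, PAB8, FIB2 and AT5G27120 comparisons had no overlap between dry and imbibed libraries, as had 58.5% of all genes tested.

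DNA replication genes rose from very low levels: 21 of 40 members of the replication and cell cycle list rose and 5 fell (median log2 fold change 1.19). MCM2, a subunit of the replicative helicase, rose from 0.51, 0.161 and 0.671 to 10.5, 5.68 and 8.45 CPM (log2 fold change 4.15 ± 0.50 SE, adjusted p = 1.48e-05). CDT1A, a replication licensing factor, rose from 0.051, 0.0807 and 0.183 to 2.83, 1.66 and 4.63 CPM (log2 fold change 4.82 ± 0.69 SE, adjusted p = 6.64e-05). PCNA2, the sliding clamp of DNA polymerase, rose from 1.07, 0.606 and 0.915 to 8.75, 9.02 and 9.1 CPM (log2 fold change 3.35 ± 0.29 SE, adjusted p = 1.1e-06). The mitotic gene CYCB1;1 stayed near 2 CPM, at 2.58, 1.09 and 1.37 in dry and 2.42, 2.28 and 2.03 in imbibed libraries (adjusted p = 0.373). The members that fell were E2F1 and the cyclin-dependent kinase inhibitor genes AT2G32710, ICK3, KRP6 and ICK5; E2F1, a cell cycle transcription factor, went from 36.4, 37.8 and 33.2 to 10.8, 9.64 and 11 CPM (log2 fold change -1.77 ± 0.11 SE, adjusted p = 1.91e-07).

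Of 26 DNA repair genes 12 rose and 2 fell. PARP1, a poly(ADP-ribose) polymerase that senses DNA breaks, rose from 1.91, 2.58 and 1.8 to 12.2, 10.6 and 12.9 CPM (log2 fold change 2.51 ± 0.20 SE, adjusted p = 6.15e-07), and PARP2 from 0.153, 0.161 and 0.305 to 2.77, 4.19 and 5.75 CPM (log2 fold change 4.33 ± 0.44 SE, adjusted p = 3.9e-06). AT5G22470, annotated as poly ADP-ribose polymerase 3, went the opposite way from a far higher level, 3106.8, 4305.0 and 3211.9 to 704.8, 783.2 and 645.8 CPM (log2 fold change -2.32 ± 0.20 SE, adjusted p = 1.02e-06). Among 35 chromatin genes 16 rose and 5 fell, including the histone variant gene HTA8 (log2 fold change 3.00 ± 0.39 SE, adjusted p = 3.08e-05).

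The telo-box AAACCCTA and site II (TGGGCC or TGGGCT) are known from plant genes for ribosomal and cell cycle proteins, and both were searched on both strands in the same windows. The promoters of AT5G27120 (chr5:9540611-9540860, plus strand, TAIR10), AT1G52930 (chr1:19710929-19711178, plus strand) and MCM2 (chr1:16969964-16970213, plus strand) are shown as the 250 bases before the start, with matches in capitals: 1 telo-box and 2 site II matches in AT5G27120 and 3 site II matches in each of the others. The 5 promoters printed were chosen after the values of their genes were seen.
AT5G27120: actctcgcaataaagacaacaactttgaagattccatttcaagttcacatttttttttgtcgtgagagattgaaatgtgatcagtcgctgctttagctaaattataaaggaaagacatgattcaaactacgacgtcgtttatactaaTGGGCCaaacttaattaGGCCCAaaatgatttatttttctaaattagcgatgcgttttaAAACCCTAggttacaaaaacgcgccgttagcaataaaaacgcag
AT1G52930: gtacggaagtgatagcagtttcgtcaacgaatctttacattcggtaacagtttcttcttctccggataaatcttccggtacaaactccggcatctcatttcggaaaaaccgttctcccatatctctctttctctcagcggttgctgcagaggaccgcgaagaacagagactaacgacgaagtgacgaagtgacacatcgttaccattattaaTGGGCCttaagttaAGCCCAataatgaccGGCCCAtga
MCM2: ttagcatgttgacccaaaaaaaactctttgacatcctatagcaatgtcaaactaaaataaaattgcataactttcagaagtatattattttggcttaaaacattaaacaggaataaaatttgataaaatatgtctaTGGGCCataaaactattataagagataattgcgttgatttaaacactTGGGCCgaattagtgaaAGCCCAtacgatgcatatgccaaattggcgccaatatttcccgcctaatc
Site II was found in 70.6% of ribosome biogenesis, 64.1% of ribosomal protein and 42.5% of replication promoters, against 20.7% of all promoters and 26.6% of those of tested genes. The telo-box was found in 47.1%, 36.6% and 7.5% of the same lists and 6.2% of all promoters.

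Across all tested genes with a promoter, the telo-box stood in 10.3% of genes that rose, 3.0% of those that fell and 5.4% of those not called. Of the 1158 tested genes with a telo-box 47.5% rose and 13.4% fell, against 27.3% and 28.0% of the 17632 without one. The ABRE was distributed the other way, in 7.0% of genes that rose and 13.5% of genes that fell, and in 15.4% of genes that fell at least 2-fold. Of the 1755 genes with an ABRE 21.3% rose and 39.2% fell. Among genes that fell at least 8-fold, however, the ABRE share was 7.8%, close to the 8.3% of genes not called. The heat shock element GAANNTTC stood in 11% of genes that rose and 11.8% of those that fell, and the evening element AAAATATCT in 2.7% and 3.0%. The RY element CATGCATG of seed maturation genes stood in 44.4% of the 9 storage protein promoters and 1.0% of all promoters. These shares are descriptions: 2314 promoters held a G-box and 2293 an ABRE, 1223 held both, and neighbouring genes can share a window.

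**Figure D3:**
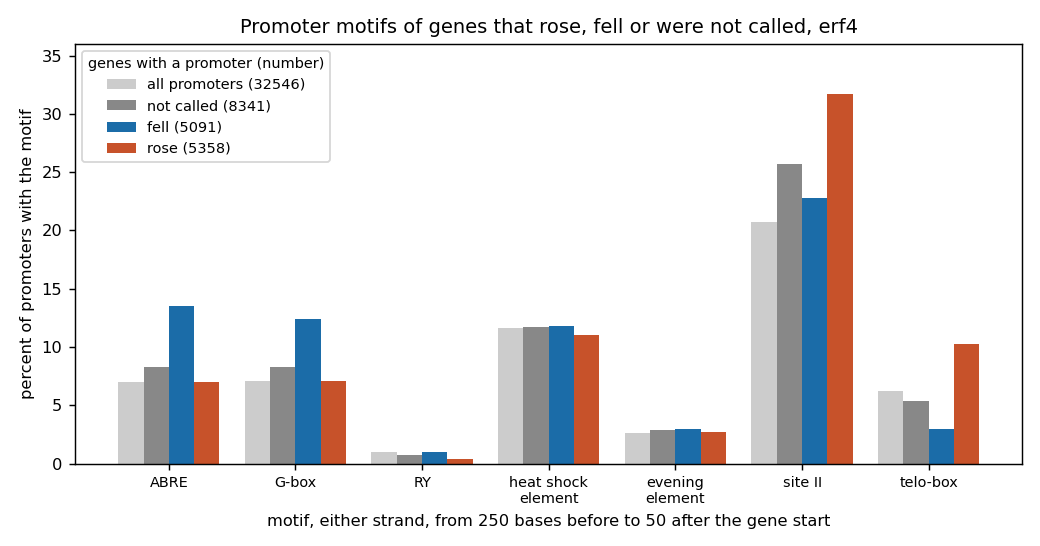
Share of promoters holding each of 7 motifs on either strand, from 250 bases before to 50 after the gene start, for all promoters and for tested genes that rose, fell or were not called in imbibed against dry seeds labelled erf4. The telo-box share is 10.3% in genes that rose and 3.0% in genes that fell, and the ABRE share is 7.0% and 13.5%.

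Metabolic lists were mixed. GolS2, a galactinol synthase that starts raffinose synthesis in maturing seeds, fell from 549.7, 574.9 and 450.0 to 22.3, 36.5 and 25.2 CPM (log2 fold change -4.23 ± 0.25 SE, adjusted p = 1.27e-07). BAM1, a beta-amylase, fell from 641.0, 885.9 and 726.6 to 73.9, 78.1 and 104.6 CPM (log2 fold change -3.13 ± 0.21 SE, adjusted p = 2.42e-07), and 12 of 29 sugar metabolism genes fell against 4 that rose. Of 26 oil breakdown genes 6 rose (23.1%, beside 28.4% of all genes) and 9 fell (34.6%, beside 27.2%). Their median of -0.03 became 0.48 with library totals. Their summed share of counts, a measure on library totals, was 2.04%, 2.01% and 2.32% in dry and 3.56%, 3.76% and 3.54% in imbibed libraries. In TMM-scaled CPM the rise was smaller, from 22197.1, 25785.8 and 24923.4 to 28372.0, 31815.2 and 27362.3. The groups did not overlap on either scale, as for 58.5% of all genes tested singly. A large part of these sums was ICL, which was not called. PCK1, which starts gluconeogenesis from oil, was among the 6 largest gains of RNA, from 1581.7, 1555.4 and 1773.2 to 3061.0, 2791.3 and 2675.9 CPM (log2 fold change 0.80 ± 0.14 SE, adjusted p = 0.000429). ADC2, an arginine decarboxylase of polyamine synthesis, gained the most CPM among the genes called, from 219.0, 430.9 and 415.6 to 1390.7, 3215.8 and 2091.2 CPM, with replicate 1 lowest in both states (log2 fold change 2.65 ± 0.32 SE, adjusted p = 1.56e-05). ICL, the isocitrate lyase of the glyoxylate cycle, was higher still but did not pass, at 11558.4, 13651.4 and 12875.5 CPM in dry and 15380.6, 17681.5 and 14388.2 CPM in imbibed libraries (adjusted p = 0.166).

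Mitochondrial genes rose in 13 of 30 cases and fell in 7; the chaperonin gene HSP60 went from 100, 100.8 and 100.8 to 306.9, 270.3 and 273.6 CPM (adjusted p = 5.4e-07). Low oxygen genes had a median of -0.00. HB2, a non-symbiotic haemoglobin, rose from 8.9, 5.89 and 6.31 to 97.8, 66.8 and 58.8 CPM (log2 fold change 3.40 ± 0.25 SE, adjusted p = 3.79e-07). ADH1, alcohol dehydrogenase, fell from 528.4, 978.4 and 563.9 to 142.3, 158.2 and 174.6 CPM (log2 fold change -2.12 ± 0.23 SE, adjusted p = 5.51e-06) and overlaps AT1G77122 on the other strand.

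Of 28 genes of reactive oxygen removal 9 fell and 5 rose, with a median of -0.06 that became 0.43 with library totals and with SAPX, a stromal ascorbate peroxidase, up from 20.7, 17.5 and 24.5 to 80.6, 84.8 and 94.6 CPM (log2 fold change 2.05 ± 0.14 SE, adjusted p = 2.42e-07). Of 15 aquaporin genes 7 fell and 2 rose, with a median of -0.40 that turned to 0.14 with library totals. Stress transcription factors fell in 13 of 37 cases and rose in 7; the NAC factor gene ATAF1 fell from 2124.5, 2403.5 and 1844.9 to 278.0, 343.7 and 353.4 CPM (log2 fold change -2.71 ± 0.18 SE, adjusted p = 2e-07), with overlaps on the other strand. Light and clock genes were near the background, 10 of 40 up and 13 down, and the clock factor gene LHY rose from 2.3, 1.49 and 2.38 to 10.7, 10.8 and 11.4 CPM (log2 fold change 2.41 ± 0.34 SE, adjusted p = 5.04e-05).

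Of 25 photosynthesis genes 9 fell (36%) and 2 rose (8%), beside 27.2% and 28.4% of all genes. Of 13 flavonoid genes 4 rose (30.8%, near the background) and 1 fell (7.69%). Photosynthesis transcripts were few in both states. LHCB5, a light-harvesting protein, fell from 8.95, 8.11 and 9.63 to 0.937, 0.665 and 1.91 CPM (log2 fold change -2.92 ± 0.35 SE, adjusted p = 1.47e-05). Of 13 leaf and root markers 6 rose (46.2%) and 2 fell (15.4%). SCR, a root patterning factor, rose from 13.2, 10.2 and 17.3 to 31.6, 38.1 and 36.5 CPM (log2 fold change 1.38 ± 0.18 SE, adjusted p = 2.36e-05). Of 10 endosperm markers tested 3 rose (30%, near the background) and none fell. The endosperm gene EPR1 (AT2G27380) made up most of that list's level and was at 3950.8, 17168.3 and 13259.3 CPM in dry and 1020.6, 7608.4 and 4977.9 CPM in imbibed libraries (adjusted p = 0.0936). With the pairs as a block EPR1 fell (adjusted p = 0.000195, over a range of 2.1e-06 to 0.287), as did 1 other endosperm marker.

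Among 34 heat shock genes 15 fell (44.1%, beside 27.2% of all genes) and 10 rose (29.4%, near the 28.4% of all genes). Their median of -0.38 turned to 0.12 with library totals. The disaggregase HSP101 fell from 668.1, 934.5 and 891.9 to 195.0, 187.3 and 227.4 CPM (log2 fold change -2.03 ± 0.22 SE, adjusted p = 7.44e-06), overlapping AT1G74300 on the other strand. HSP90.1, a cytosolic chaperone, fell from 620.9, 714.7 and 683.1 to 217.4, 275.2 and 290.6 CPM (log2 fold change -1.37 ± 0.20 SE, adjusted p = 6.22e-05). AT5G51440, an HSP20-like chaperone gene, rose from 5.61, 4.52 and 4.06 to 28.9, 34.1 and 37.2 CPM (log2 fold change 2.82 ± 0.17 SE, adjusted p = 1.26e-07). HSC70-1, a constitutive HSP70, rose from 1040.9, 932.8 and 1690.3 to 1652.0, 2221.0 and 2482.4 CPM (log2 fold change 0.79 ± 0.23 SE, adjusted p = 0.0104), where the lowest imbibed library lay below the highest dry one.

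Col-0 seeds imbibed for the same time served as the comparison. In Col-0 9915 genes changed (52.5%), 5148 higher and 4767 lower. Of the genes called in both genotypes, 8148 of 8156 moved in the same direction; these 8156 were 77.7% of the erf4 calls and 82.3% of the Col-0 calls. Across all 18897 genes the log2 fold changes of the 2 genotypes, which share no library but share 1 fit, had r = 0.843 and rho = 0.871, given as a description because genes are not independent. The response to imbibition was thus largely shared, and a call in 1 genotype alone does not show a difference between them.

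The difference itself was tested as the interaction of genotype and imbibition. No gene passed an adjusted p of 0.05 by edgeR (0%, smallest adjusted p = 0.0723), while 1980 genes (10.5%) had an unadjusted p under 0.05, 812 with a more positive (4.3%) and 1168 with a more negative response in libraries labelled erf4. DESeq2 called 191 genes. The main fit used no pairs. Same-numbered dry and imbibed erf4 libraries deviated together, so an alternative chosen after seeing the data took the numbers as pairs. With the replicate number as a block for the erf4 libraries, 180 genes passed, 39 with a more positive and 141 with a more negative response. The call of a difference therefore depended on the pairing and the tool, and the median SE of the difference was 0.31 on the log2 scale, against 0.22 for the erf4 response alone.

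**Figure D4:**
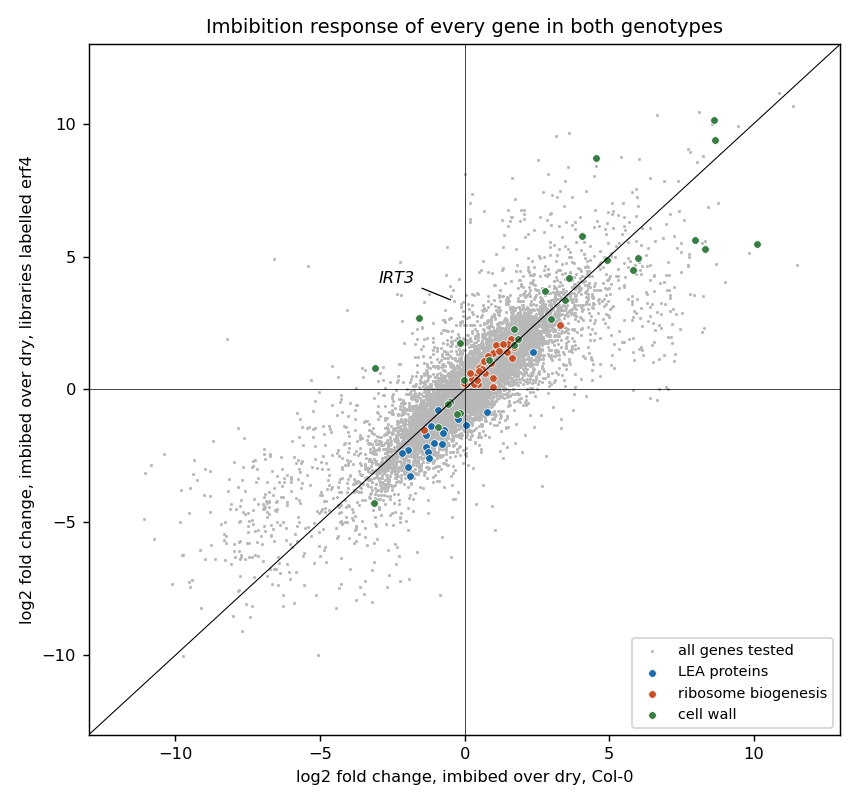
Log2 fold change of imbibed over dry seeds in libraries labelled erf4 (vertical) against Col-0 (horizontal) for 18897 genes, with members of 3 gene lists in colour and the line of equal change in black. Most genes lie near that line (r = 0.843); LEA proteins lie mainly below it, and IRT3 is high in erf4 and near 0 in Col-0.

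The gene with the smallest p for the difference, named for this after its values were seen, was IRT3, a zinc and iron transporter of the plasma membrane. It rose from 4.13, 3.15 and 3.72 to 46.8, 24.5 and 38.7 CPM in seeds labelled erf4 (log2 fold change 3.32 ± 0.33 SE, adjusted p = 3.4e-06), with no overlap of the groups. In Col-0 its mean was 0.828 CPM in dry and 0.633 CPM in imbibed seeds (log2 fold change -0.37, adjusted p = 0.463). The difference was 3.68 on the log2 scale (unadjusted p = 5.67e-06, adjusted p = 0.0723). With the pairs as a block the adjusted p of IRT3 was 0.00455 and by DESeq2 3.72e-09. Without both erf4 libraries of replicate 3 it was 0.213 by edgeR, with a difference of 3.64. Leaving out 1 Col-0 dry library gave 0.298, the highest of the alternatives, and the size of the difference ranged from 3.34 to 4.07. Of 17 metal transport genes 6 rose (35.3%) and 5 fell (29.4%) in seeds labelled erf4, beside 28.4% and 27.2% of all genes. Their median of -0.10 became 0.43 with library totals. NRAMP3, a vacuolar metal exporter, rose from 2.09, 1.29 and 2.68 to 11.1, 5.48 and 11 CPM (log2 fold change 2.17 ± 0.38 SE, adjusted p = 0.000324), against 0.80 (adjusted p = 0.0813) in Col-0, a difference with an unadjusted p of 0.0201.

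LEA transcripts fell further in seeds labelled erf4 than in Col-0 by most estimates. The median log2 fold change of the 18 members was -1.85 in erf4 and -1.11 in Col-0. The response was the more negative in erf4 for 17 of the 18, beside 9677 of all 18897 genes. Of the 18 members 10 (55.6%, beside 10.5% of all genes) had an unadjusted p under 0.05 for the difference, all in that direction. None passed after adjustment by edgeR, 1 did with the pairs as a block and 3 did by DESeq2. Without both libraries of replicate 3 the number at an unadjusted p under 0.05 was again 10, whereas without the dry erf4 library of replicate 2, in which LEA transcripts were highest, it was 4. RAB18 fell by 3.27 in erf4 and by 1.88 in Col-0 on the log2 scale (unadjusted p = 0.0088), LEA7 by 2.36 and by 1.27 (unadjusted p = 0.000988), and EM1, the other group 1 LEA gene, went from 948.7, 2114.8 and 1132.6 to 465.8, 758.9 and 430.1 CPM in erf4, while its Col-0 log2 fold change was 0.04 (unadjusted p = 0.0167). The LEA share of counts in Col-0 was 3.41% to 4.39% in dry and 2.03% to 2.53% in imbibed seeds, so the erf4 libraries started above the Col-0 range and ended below it.

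ABA signalling and heat shock genes had the same tilt. Both were picked from the 35 lists after the differences were seen. Of 35 ABA signalling genes 14 (40%) had an unadjusted p under 0.05, 12 with a more negative and 2 with a more positive response in erf4. The genome-wide share was 10.5% and leaned the same way, 1168 genes more negative and 812 more positive. Ribosomal protein (28 against 8), ABA synthesis and breakdown (4 against 0) and oil body genes (3 against 0) also leaned this way. Pollen markers (0 against 7) and repair genes (0 against 5) leaned the other way. ABI2 fell by 2.55 in erf4 and by 1.57 in Col-0 (unadjusted p = 0.000156), and HAI1 by 3.52 and by 1.86 (unadjusted p = 0.00142). Of 34 heat shock genes 11 (32.4%) had an unadjusted p under 0.05, all with the more negative response in erf4, and the medians were -0.38 in erf4 and 0.24 in Col-0. HSP90.1 fell by 1.37 in erf4, against a Col-0 value of -0.32 (unadjusted p = 0.00188), and HSP17.4, a small heat shock protein, went from 6.63, 23.7 and 10.8 to 3.29, 5.79 and 3.5 CPM in erf4 (log2 fold change -1.70) against 0.72 in Col-0 (unadjusted p = 0.000987). With a single library left out in turn or both of an erf4 replicate, 9 to 12 heat shock genes, 8 to 14 ABA signalling genes and 4 to 11 LEA genes had an unadjusted p under 0.05 in that direction; these are counts and need not be of the same genes. With the pairs as a block 3 heat shock and 2 ABA signalling genes passed after adjustment.

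**Figure D5:**
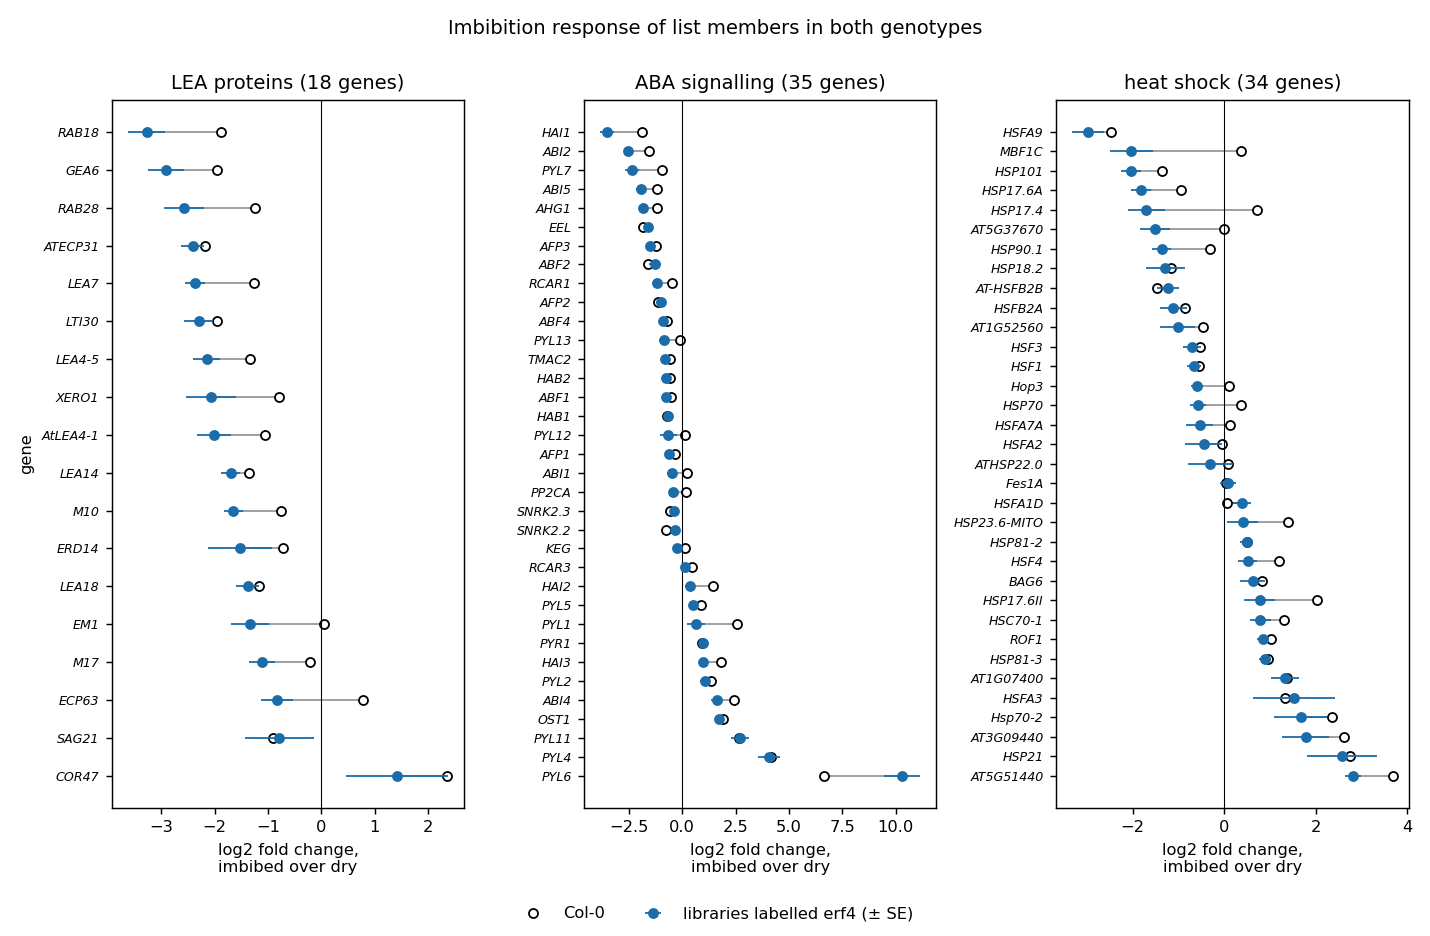
Log2 fold change of imbibed over dry seeds for each tested member of the LEA, ABA signalling and heat shock lists, in libraries labelled erf4 (blue, bars ± SE) and Col-0 (open circles). The erf4 value is the lower one for 17 of 18 LEA, 26 of 35 ABA signalling and 30 of 34 heat shock genes, beside 9677 of all 18897 genes. The erf4 value of PYL6, at 0 in the dry libraries, depends on the prior count of the fit and is no measured fold.

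Of 26 repair genes 5 (19.2%, beside 10.5% of all genes) had an unadjusted p under 0.05 for the difference, all with the more positive response in erf4. Without both libraries of replicate 3 the number was 3 (11.5%, beside 8.7% of all genes in that fit), near the background. PARP1 rose by 2.51 in erf4 and by 1.17 in Col-0 (unadjusted p = 0.000224). Of 20 pollen markers 7 had an unadjusted p under 0.05, all more positive in erf4, where dry levels were lower than in Col-0. DOG1 fell by 1.45 in erf4 and by 1.49 in Col-0 (unadjusted p = 0.913, difference 0.03 with an SE of 0.29), and AT4G18660 fell by 2.44 and by 1.10 (unadjusted p = 0.000436).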

How the data were processed

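Seeds labelled erf4 and Col-0 were sequenced by the submitters as paired-end total RNA libraries. The deposited values are raw whole-number counts per gene, with no normalization. The build named in the submitters' processing notes is TAIR10, and the tools listed there are DESeq2 1.34.0, featureCounts 2.0.1, fastp 0.20.0 and HISAT2 2.1.0; parameters, strand setting and annotation release are not given in the sources used here.

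Groups were taken from the sample titles. Counts were fitted with edgeR 4.0.16 in R 4.3.3 (quasi-likelihood, robust, TMM, filterByExpr), with 4 group means over all 12 libraries, and the SE of a log2 fold change was its size divided by the square root of F. The filter kept 18897 of 32833 genes and 99.97% of counts. The common biological coefficient of variation was 0.241 with 8 residual degrees of freedom. DESeq2 1.42.0, other scalings and filters, a replicate block, a covariate for the letter that ends each library name and leaving out libraries were alternatives. The fit was also run on simulated counts with independent replicates and few changed genes. These counts held no replicate pairing, so that run cannot judge the calls made here.

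Same-numbered erf4 libraries correlated at 0.341, 0.343 and 0.35 in their deviations from the group means, and others at -0.115 to -0.214. For this reason the alternatives with a replicate block took the numbers as pairs, while the main fit did not. In Col-0 the same-numbered values were 0.113, 0.0655 and 0.215. No 2 replicates agreed within sampling noise.

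Named genes were ERF4, the 8 largest rises and falls with at least 1 CPM and no overlap, the 6 largest gains and losses of CPM, up to 4 called members per list, and DOG1, ABI5, NCED6, NCED9, CYP707A2, GA3OX1, MFT, HSFA9 and RGL2; other list members were chosen after their values were seen. Members and lists were chosen with earlier results of these data known. Promoters were read from the TAIR10.1 genome at the count table's gene starts, since no promoter table was at hand; 32532 of 32548 nuclear genes had the same start and end in its annotation.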

Additional observations from a re-analysis of the deposited data

Results flagged for a closer look

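Of the 8 genes called in both genotypes with opposite signs, 6 had dry and imbibed libraries that did not overlap in either genotype, with lower imbibed levels in libraries labelled erf4 and higher ones in Col-0. In erf4 alone such a lack of overlap held for 58.5% of all genes tested. The 6 genes were chosen after their values were seen, and the test of the difference did not pass for any of them by edgeR. AT7SL-1, a gene for the 7SL RNA of the signal recognition particle, was at 25.8, 110.5 and 41.4 CPM in dry and 12.7, 16.9 and 9.86 CPM in imbibed erf4 seeds, and at 7.22, 11.7 and 8.81 against 33.5, 21.0 and 21.6 CPM in Col-0. The difference was -3.62 on the log2 scale (adjusted p = 0.164), the largest of the 6. PRA8, of the prenylated rab acceptor family, went from 18.2, 21.7 and 23.2 to 13.9, 16.3 and 14.5 CPM in erf4 and from 15.4, 17.3 and 16.5 to 21.1, 22.0 and 21.9 CPM in Col-0, a difference of -0.90 (adjusted p = 0.181). FD3, a ferredoxin gene, differed by -0.99 (adjusted p = 0.181), AT2G21180 by -0.94 (adjusted p = 0.225), AT4G24110 by -1.07 (adjusted p = 0.235) and HEI10, a meiotic crossover factor, by -1.04 (adjusted p = 0.25).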

How the results depend on the processing

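The count of genes changed in erf4 was 8893 to 10584 with libraries left out (4428 to 5442 risen, 4465 to 5142 fallen), 8330 to 10693 in Col-0, and 5989 and 5365 when a change of at least 2-fold was also asked for, with 3162 erf4 genes risen and 2827 fallen. Library totals gave 8616 risen and 2653 fallen. With them the medians of the ABA signalling, jasmonate and stress transcription factor lists (-0.62, -0.58 and -0.60) became -0.08, -0.08 and -0.12. The count of genes changed in erf4 was 8820 in a fit of the 6 erf4 libraries alone. It was 11690 with the replicate block for the erf4 libraries, an alternative chosen after seeing the data. The difference from Col-0, 0 genes by edgeR, became 4 with no low-count filter, 594 with a replicate block in each genotype, 180 with the erf4 block and 191 by DESeq2; with libraries left out it was 0 to 15, namely 15 without dry erf4 replicate 1, 12 without both of erf4 replicate 1, 2 without imbibed erf4 replicate 3, and 1 each without imbibed erf4 replicate 2 and dry Col-0 replicate 2. With library totals the values of CYP707A2 (0.10) and the medians of the dormancy (0.17), ethylene (0.14), heat shock (0.12) and aquaporin (0.14) lists reversed, the small medians of metal transport, reactive oxygen and oil breakdown genes (-0.10, -0.06 and -0.03) became 0.43, 0.43 and 0.48, and the flavonoid median ran from -0.11 (without imbibed erf4 replicate 3) to 0.47 with libraries left out; the cause was not tested. Of 161 named genes called, 137 kept direction and call in every alternative at the same threshold, 24 lost it in at least 1, and 1 of them reversed. The erf4 replicate block ended the call of the beta-amylase gene BAM5 (adjusted p = 0.0428 without and 0.0553 with it, 0.0103 to 0.357 over the alternatives), and CRA1, COR47 and EPR1 passed with it; no other gene of the naming rule changed its call. Depth limits genes near 3 counts, and p-values rest on 3 libraries a group.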
